A study of Mus musculus with 21 samples.

Results

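Forebrain RNA of 3 E2H mice was compared with that of 3 E3H mice, parental animals that carry no tau transgene. In both lines the mouse Apoe gene had been replaced on both chromosomes by a human allele, APOE2 in E2H and APOE3 in E3H. The lines were kept as homozygotes on a C57BL6 background, and the mice were 9 to 10 months old. All genes that passed a filter on low counts entered the comparison, which were 20797 of the 55401 genes in the count table, and the 6 mice are part of a series of 21. That series also holds 3 parental E4H mice (APOE4) and 4 mice each of PS/E2H, PS/E3H and PS/E4H, which in addition express P301S mutant human tau from the PS19 transgene and were taken at paralysis. Each genotype here is 1 line, and the PS19 mice came from crosses with a B6/C3H stock, so the APOE allele and any other inherited difference between the lines cannot be told apart in these data.

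APOE, apolipoprotein E, is the main lipid carrier made in the brain, chiefly by astrocytes and by activated microglia. It hands cholesterol and phospholipids to cells through lipoprotein receptors on their surface. APOE2 is known as the allele linked to a lower risk of Alzheimer disease. Comparing the lines without tau asks what the allele or line alone changes in forebrain expression, before any tau pathology.

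The total count per mouse was 60394625 to 75932183, and p-values measure the spread between these mice. The mouse Apoe gene, replaced in both lines, still received 11.2 to 15.7 CPM (counts scaled to library size with TMM factors), with a log2 difference of 0.30 between E2H and E3H that did not pass the test (adjusted p = 0.319 by edgeR), and human APOE was not analysed here. According to the methods all 6 mice were male, but Xist, the RNA of the inactive X chromosome, was at 224 to 440 CPM in each of them, and 4 Y-linked genes together reached at most 0.351 CPM. By these reads all 6 had the pattern of female mice, unlike the methods, and these genes did not separate E2H from E3H. E2H mouse 2 stood apart from the rest: its log2 CPM correlated with those of the other 5 at 0.966 to 0.973, against 0.977 to 0.982 among the others, and mitochondrial genes took 10.9% of its counts against 7.34% to 9.10%. The lists for ribosomal proteins, respiration and immediate early genes are given with and without it. Forebrain markers were present in every mouse, with Tbr1, a transcription factor of cortical excitatory neurons, at 89.9 to 112 CPM.

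Calls required both a fold change of at least 2 and an adjusted p (Benjamini-Hochberg) under 0.05 in the quasi-likelihood test of edgeR. By this rule 30 genes (0.144% of those tested) were called, 8 higher (0.0385%) and 22 lower (0.106%) in E2H. Another 7 genes had an adjusted p under 0.05 with a smaller fold, which makes 37 (0.178%). In none of these 37 genes did the E2H and E3H mice overlap, whereas over all genes tested the groups did not overlap in 2614 genes higher in E2H (12.6%) and 2241 lower (10.8%). Without E2H mouse 2, 35 of the 37 still had an adjusted p under 0.05 in the same direction. Leaving out 1 of the other mice kept fewer, from 20 (without E3H mouse 1) to 25 (without E2H mouse 1 or mouse 3). The 37 genes were concentrated in position. Chromosome 4 held 13 of the 30 calls with 5.92% of the genes tested, and chromosome 7, which carries Apoe, held 7 with 7.82%. Among the 30, 19 carry only a predicted-gene name or an identifier. The plot of the named genes gives the level in each mouse.

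**Figure D1:**
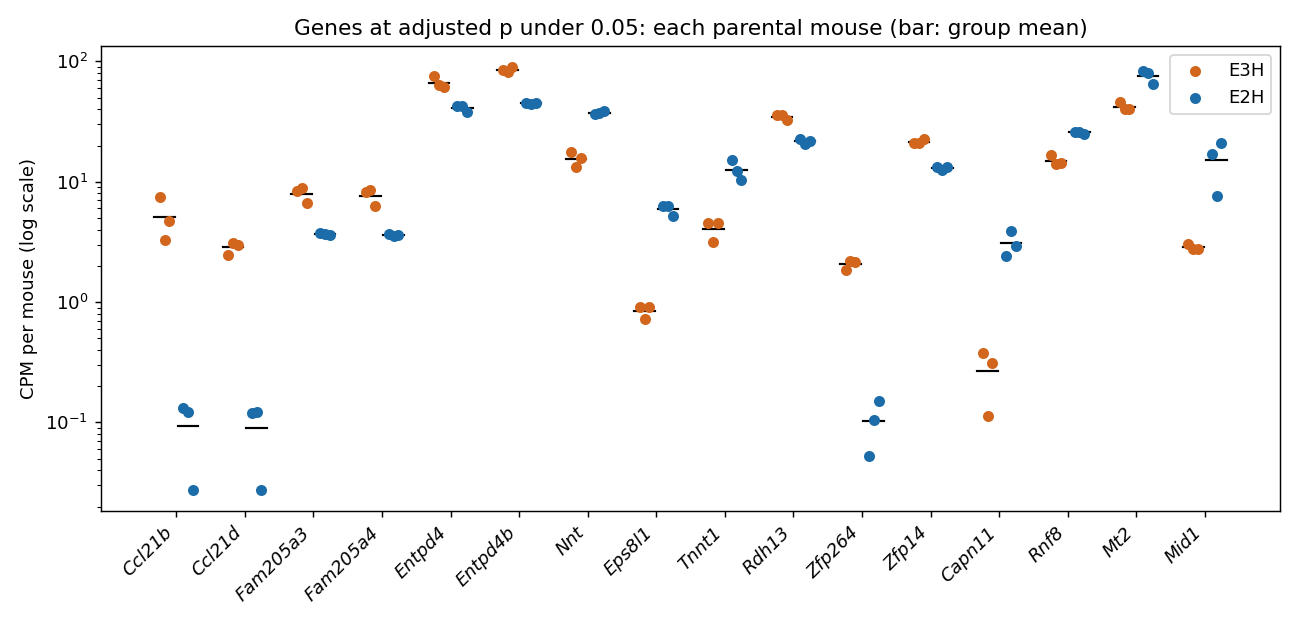
CPM of each parental mouse (log scale) for the 16 identifiers with a name other than Gm or Rik and an adjusted p under 0.05, with Nnt as ENSMUSG00000025453; the other Nnt identifier, at 0 in E2H, is not drawn. Orange points are E3H mice, blue points E2H mice and bars group means; the colors do not overlap for any gene, with the widest separation for Ccl21b and Ccl21d, whose E2H values are also the most scattered on this scale.

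Among the largest falls were those of a chemokine. CCL21 is the ligand of the receptor CCR7 and guides dendritic cells and T cells, and the mouse genome carries several near-identical copies of its gene. Because the copies can exchange reads, their sequences are shown first. In the GENCODE M21 annotation the coding sequence of Ccl21b has 402 bases, and those of Ccl21d, Gm13304 and Gm10591 have 0 differences from it. Ccl21a, a copy on the opposite strand, differs at 2 positions, A84T and T194C, counted from 1 at the first base of the start codon with the Ccl21b base first, an identity of 99.5%. Bases 1 to 240 are shown, with capitals at those 2 positions.
Ccl21b: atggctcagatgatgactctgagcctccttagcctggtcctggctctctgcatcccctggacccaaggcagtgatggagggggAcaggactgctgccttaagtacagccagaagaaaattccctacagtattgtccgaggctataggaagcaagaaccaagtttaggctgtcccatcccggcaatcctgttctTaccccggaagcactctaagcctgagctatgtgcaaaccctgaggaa
Ccl21a: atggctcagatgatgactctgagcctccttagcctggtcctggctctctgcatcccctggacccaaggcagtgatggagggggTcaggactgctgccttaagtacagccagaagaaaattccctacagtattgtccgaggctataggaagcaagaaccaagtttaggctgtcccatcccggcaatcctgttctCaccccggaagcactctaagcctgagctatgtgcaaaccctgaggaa

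Ccl21b (ENSMUSG00000095675, chromosome 4, 42255767 to 42256432, GRCm38) was at 0.133, 0.122 and 0.0275 CPM in E2H mice 1 to 3 and at 7.41, 3.27 and 4.68 CPM in the E3H mice. All 3 E2H mice were near 0, and the lowest E3H mouse was far above the highest E2H mouse. The log2 difference was -5.76 (SE 0.496, adjusted p = 0.00124 by edgeR). Ccl21d (chromosome 4, 41903610 to 41904743) was at 0.119, 0.122 and 0.0275 CPM in E2H and at 2.46, 3.08 and 3.01 CPM in E3H, again with no overlap. Its log2 difference was -4.98 (SE 0.433, adjusted p = 0.00126). Gm13304 and Gm10591, which encode the same product, showed log2 differences of -5.51 and -6.38. Ccl21a had lower levels in both lines, 0.0864 ± 0.0709 CPM (SD, n = 3) in E2H and 0.717 ± 0.183 CPM in E3H, and its log2 difference of -2.98 did not pass the test (adjusted p = 0.211 by edgeR).

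How reads were divided among the copies is uncertain. All windows of 50 bases in Ccl21b, Gm13304 and Gm10591 occur in another annotated transcript, as do 97.1% of those in Ccl21d and 71.6% of those in Ccl21a. The 5 copies were therefore also summed. Together they had 0.6495, 0.4895 and 0.2065 CPM in E2H mice 1 to 3 and 22.5, 20.9 and 15.7 CPM in the E3H mice, so that the sum was low in every E2H mouse without regard to which copy the reads were given. The log2 difference of the sum was -5.45 (SE 0.335, adjusted p = 0.000221 by edgeR). In E4H mice the 4 copies other than Ccl21a summed to 14.6 to 16.1 CPM, a range that lies within or next to that of E3H (15.3 to 21.7 CPM) and far from that of E2H (0.124 to 0.491 CPM).

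The Ccl21 copies other than Ccl21a lie in a stretch of chromosome 4, from 41893388 to 42612860 (0.719 Mb), in which all 13 calls of that chromosome fell. Of its 26 tested genes, 21 were lower in E2H at an unadjusted p under 0.05 and 0 were higher, against 5.86% lower and 8.25% higher over all genes, with the bounds of the stretch set by the called genes themselves. The called genes are copies that can exchange reads, so they do not count separately. Fam205a3 was at 3.72, 3.65 and 3.59 CPM in E2H and at 8.38, 8.83 and 6.69 CPM in E3H. Its paralog Fam205a4 was at 3.65, 3.57 and 3.59 CPM in E2H and at 8.14, 8.52 and 6.34 CPM in E3H. All 50-base windows of Fam205a3 recur in Fam205a4, and 98.6% of those of Fam205a4 recur in other transcripts. The similar values of Fam205a3 and Fam205a4 are therefore not independent. The E2H mice were closely alike in both genes, and every E3H mouse was higher. The log2 differences were -1.12 (SE 0.158, adjusted p = 0.0341) and -1.09 (SE 0.162, adjusted p = 0.0443) in edgeR. Fam205a4 lost its call when any 1 mouse was left out and Fam205a3 in 5 of 6 such fits, while the sum of 4 Fam205a copies had a log2 difference of -1.07 (adjusted p = 0.0119).

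The other calls of the stretch were predicted genes and pseudogenes that resemble each other. Gm17167, Gm13301, Gm13302, Gm5859 and Gm17081 were at 0.0524 to 0.451 CPM in E2H and at 1.22 to 6.997 CPM in E3H, with log2 differences from -4.84 to -3.32. Gm21093 and Gm3883 had smaller differences, -1.37 and -1.46, from levels of 2.05 to 4.09 CPM in E2H and 7.92 to 9.76 CPM in E3H, and kept their calls in 1 and 2 of 6 fits without 1 mouse. Between 62.2% and 100% of the 50-base windows of these 7 genes recur in other transcripts. Summed with their relatives into 1 value over 13 genes, they had a log2 difference of -2.05 (SE 0.163, adjusted p = 0.00128 by edgeR). Of 3 called identifiers that the annotation does not place or name, ENSMUSG00000118458 fell most, from 5.08 to 6.55 CPM in E3H to 0.248 to 0.305 CPM in E2H (log2 difference -4.39). The log2 differences of the other two were -3.53 and -3.07.

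On chromosome 14, between 69337174 and 69683286, 4 of 9 tested genes had an adjusted p under 0.05, and all 4 were lower in E2H. Entpd4 and Entpd4b are copies of a gene for an intracellular nucleotidase that removes phosphate from nucleoside di- and triphosphates, and all their 50-base windows are shared. Entpd4 was at 42.9, 42.3 and 38.3 CPM in E2H and at 74.9, 64.1 and 61.1 CPM in E3H (log2 difference -0.70, SE 0.0996, adjusted p = 0.0369 by edgeR). Entpd4b was at 45.4, 44.0 and 44.96 CPM in E2H and at 85.0, 81.7 and 89.7 CPM in E3H (log2 difference -0.93, SE 0.0760, adjusted p = 0.000984). Their sum was 83.2 to 88.3 CPM in E2H and 146 to 160 CPM in E3H, a log2 difference of -0.82 (adjusted p = 0.00157). The neighbors Gm16867 and Gm27177, which overlap Entpd4 and Entpd4b on the other strand and share 93.0% and 100% of their windows with other transcripts, were nearly absent in E2H. Gm16867 was at 0.367 to 0.592 CPM in E2H against 16.1 to 19.9 CPM in E3H (log2 difference -5.10, adjusted p = 1.93e-05, the smallest of the comparison). Gm27177 was at 0.477 to 0.979 CPM against 10.1 to 14.3 CPM (log2 difference -4.16, adjusted p = 0.000371).

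Nnt encodes nicotinamide nucleotide transhydrogenase, the inner mitochondrial membrane enzyme that makes NADPH from NADH. A deletion within the gene is carried by C57BL/6J mice and not by several other C57BL/6 substrains. The gene has 2 overlapping identifiers on chromosome 13. The longer, ENSMUSG00000025453 (119335448 to 119408997), was at 36.4, 37.2 and 38.6 CPM in E2H and at 17.6, 13.3 and 15.8 CPM in E3H (log2 difference 1.26, SE 0.115, adjusted p = 0.00172 by edgeR). The shorter, ENSMUSG00000116207 (119335528 to 119408952), was at 0 CPM in all 3 E2H mice and at 4.12, 8.79 and 2.77 CPM in E3H. Taking 3 counts per library as the floor, it was at least 117-fold lower in E2H (adjusted p = 0.00619). All 50-base windows of the shorter identifier and 46.9% of those of the longer recur in other transcripts. How reads were divided between the identifiers is therefore uncertain, and the lines differed in the counts assigned to each. With both identifiers summed, Nnt was at 36.4, 37.2 and 38.6 CPM in E2H and at 21.7, 22.1 and 18.6 CPM in E3H, a log2 difference of 0.85 (SE 0.0970, adjusted p = 0.00951). In the E4H mice the sum was 18.5 to 22.0 CPM, beside E3H.

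Of the other 18 genes for mitochondrial NADPH and peroxide handling that were tested, 0 had an adjusted p under 0.05 in edgeR. DESeq2 placed 5 of the 20 identifiers of the whole list there, and these 5 include both Nnt identifiers. Among all genes it placed 2.51% higher and 1.37% lower. Over the whole list of 20 identifiers, 6 were higher (30%) and 1 lower (5%) in E2H at an unadjusted p under 0.05. The shares over all genes were 8.25% and 5.86%, and the median log2 difference of the list was 0.10. The 1 lower was the shorter Nnt identifier, and the longer was among the 6 higher. Gpx1, a glutathione peroxidase, was at 56.9 to 74.3 CPM in E2H and 46.9 to 51.2 CPM in E3H (log2 difference 0.39, adjusted p = 0.232 by edgeR). Prdx3, the mitochondrial peroxiredoxin, had a log2 difference of 0.36 (adjusted p = 0.244).

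On chromosome 7, the 9 genes at an adjusted p under 0.05 lay between 4424770 and 30051380, a span of 25.6 Mb that includes Apoe at 19696109. In this span, whose bounds the 9 genes set, 61 of 379 tested genes were higher and 30 lower in E2H at an unadjusted p under 0.05, which is 24% of them, beside 8.25% higher and 5.86% lower over all genes. The nearest to Apoe were the noncoding Gm45104 and 9330104G04Rik, 1.3 and 2.82 Mb before it, and the others were 10.3 to 15.3 Mb away. Gm45104 was at 0.795, 1.35 and 1.13 CPM in E2H and at 9.02, 9.29 and 11.2 CPM in E3H (log2 difference -3.18, SE 0.220, adjusted p = 0.000373 by edgeR). 9330104G04Rik went the other way, with 5.24 to 6.45 CPM in E2H and 0.843 to 1.26 CPM in E3H (log2 difference 2.59, adjusted p = 0.00124).

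Eps8l1, Tnnt1 and Rdh13 are neighbors and differed in both directions. Eps8l1, an adaptor of the EPS8 family that links growth factor receptors to actin remodeling, was at 6.32, 6.31 and 5.19 CPM in E2H and at 0.910, 0.721 and 0.908 CPM in E3H. E3H mice were uniformly below 1 CPM, and the log2 difference was 2.81 (SE 0.200, adjusted p = 0.000373 by edgeR). Tnnt1, troponin T of slow skeletal muscle, which is also made by some neurons, was at 15.2, 12.3 and 10.3 CPM in E2H and at 4.50, 3.16 and 4.55 CPM in E3H (log2 difference 1.63, SE 0.199, adjusted p = 0.0140). Rdh13, a mitochondrial retinol dehydrogenase, was lower instead, at 22.8, 20.6 and 21.7 CPM in E2H and 35.5, 35.7 and 32.6 CPM in E3H (log2 difference -0.68, SE 0.0898, adjusted p = 0.0240). E4H mice were in or near the E2H range for Eps8l1, at 4.56 to 7.67 CPM, and Rdh13, at 19.2 to 22.1 CPM, whereas for Tnnt1, at 6.35 to 10.8 CPM, 2 of the 3 lay between E3H and E2H. Of the 9 tested genes for EPS8 family members and their partners, Eps8l1 was the 1 with an adjusted p under 0.05, and the median log2 difference was -0.12. Its list partners with the smallest p were Sos1, Abi2 and Baiap2, with log2 differences of -0.30, -0.15 and -0.15.

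Farther along, Zfp264, annotated as a transcribed pseudogene of a zinc finger gene, was at 0.0530, 0.105 and 0.151 CPM in E2H and at 1.83, 2.21 and 2.17 CPM in E3H (log2 difference -4.31, SE 0.399, adjusted p = 0.00193 by edgeR). Zfp14, a zinc finger gene after Apoe, was at 13.1, 12.5 and 13.2 CPM in E2H and at 21.02, 20.8 and 22.5 CPM in E3H (log2 difference -0.73, SE 0.0971, adjusted p = 0.0240). The groups were well apart in both genes and tight for Zfp14. For Zfp264 the E2H mice had only 4, 6 and 11 counts, near the floor. For these 2, E4H mice were on the E3H side or between, with Zfp264 at 0.380 to 2.25 CPM and Zfp14 at 23.7 to 23.9 CPM. Gm15510 and Gm45844 were higher in E2H, with log2 differences of 3.23 and 2.90 from levels of 0.0648 to 0.240 and 0.368 to 0.802 CPM in E3H. Gm45844 shares 42.7% of its windows with other transcripts, and Gm15510, with the largest adjusted p of the called genes on this chromosome (0.0437 by edgeR), lost its call in each of the 6 fits without 1 mouse.

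Chromosome 17 held 3 genes at an adjusted p under 0.05. Rnf8 encodes a ubiquitin ligase that marks chromatin at DNA double-strand breaks. The annotated gene Gm28043 starts within Rnf8 on the same strand and runs on into the neighbor Cmtr1. Gm28043 shares 75.6% of its windows with other transcripts, and 12.7% of the windows of Rnf8 recur in Gm28043. Rnf8 was at 25.9, 25.99 and 25.1 CPM in E2H and at 16.5, 14.1 and 14.4 CPM in E3H (log2 difference 0.78, SE 0.101, adjusted p = 0.0233 by edgeR). Gm28043 moved opposite, at 13.3, 8.69 and 13.4 CPM in E2H and 23.6, 28.3 and 32.3 CPM in E3H (log2 difference -1.25, SE 0.183, adjusted p = 0.0412). Both had an adjusted p under 0.05 in 1 of 6 fits without 1 mouse. Their sum was 34.7 to 39.2 CPM in E2H and 40.2 to 46.7 CPM in E3H, a log2 difference of -0.20 that did not pass the test (adjusted p = 0.369), and with Cmtr1 added it was -0.05 (adjusted p = 0.799). The difference of each of the pair was thus not seen in their total.

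Capn11, a calpain, one of the calcium-dependent proteases, and one known mainly from testis, lies 16.0 Mb farther on. Capn11 was at 2.43, 3.92 and 2.92 CPM in E2H and at 0.380, 0.112 and 0.311 CPM in E3H. The E3H mice had barely any reads, and the log2 difference was 3.50 (SE 0.411, adjusted p = 0.0105 by edgeR). Of the 12 calpain genes tested it was the 1 with an adjusted p under 0.05. The small subunit Capns1 was at 153 to 188 CPM in E2H and 135 to 144 CPM in E3H (log2 difference 0.26, adjusted p = 0.271), Capn10 and Capn15 had log2 differences of 0.21 and -0.22, and the median of the list was 0.06. No 50-base window of Capn11 or Eps8l1 is shared with another transcript.

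The 3 remaining genes were scattered. Mt2 encodes a metallothionein, a small zinc- and copper-binding protein induced by metals and glucocorticoids. It was at 83.3, 79.6 and 64.3 CPM in E2H and at 45.7, 39.9 and 40.3 CPM in E3H (log2 difference 0.85, SE 0.112, adjusted p = 0.0240 by edgeR). Its neighbor Mt1 was at 158, 159 and 122 CPM in E2H and 97.0, 81.8 and 81.1 CPM in E3H, a log2 difference of 0.75 (SE 0.120) that came short of the threshold (adjusted p = 0.0609). Both genes were higher in every E2H mouse than in any E3H mouse. E4H mice lay between for Mt2, at 47.3 to 56.0 CPM.

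Mid1, an X-linked ubiquitin ligase gene that spans the pseudoautosomal boundary in C57BL/6 mice, was at 16.9, 7.62 and 21.1 CPM in E2H and at 3.06, 2.75 and 2.76 CPM in E3H (log2 difference 2.41, SE 0.323, adjusted p = 0.0240 by edgeR). E2H mice were all higher but widely spread, and the call held in 1 of 6 fits without 1 mouse. Gm15920, a processed pseudogene on chromosome 5 of which 78.8% of windows match the complex I gene Ndufa12, was at 34.1 to 44.6 CPM in E2H and 16.4 to 22.1 CPM in E3H (log2 difference 0.95, adjusted p = 0.0469, held in 1 of 6 fits without 1 mouse), and E2H mouse 2, which stood apart above, was the highest.

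Where the differences sat across all 6 groups is shown by the plot of levels in all mice. The 4 identical Ccl21 copies, Gm16867 with Gm27177 and the Entpd4 pair were low in both groups with APOE2, and Nnt was high in both. These were levels in all 21 mice under 1 scaling and were not tested across the 6 groups. Within PS/E3H the same loci were more spread than in E3H, with the Ccl21 sum at 6.49 to 21.7 CPM and the Gm16867 and Gm27177 sum at 16.3 to 36.2 CPM. In PS/E2H these sums were at 0.384 to 0.533 and 0.620 to 1.36 CPM. Both PS19 groups descend from crosses with the B6/C3H stock, and the cause of the spread was not tested.

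**Figure D2:**
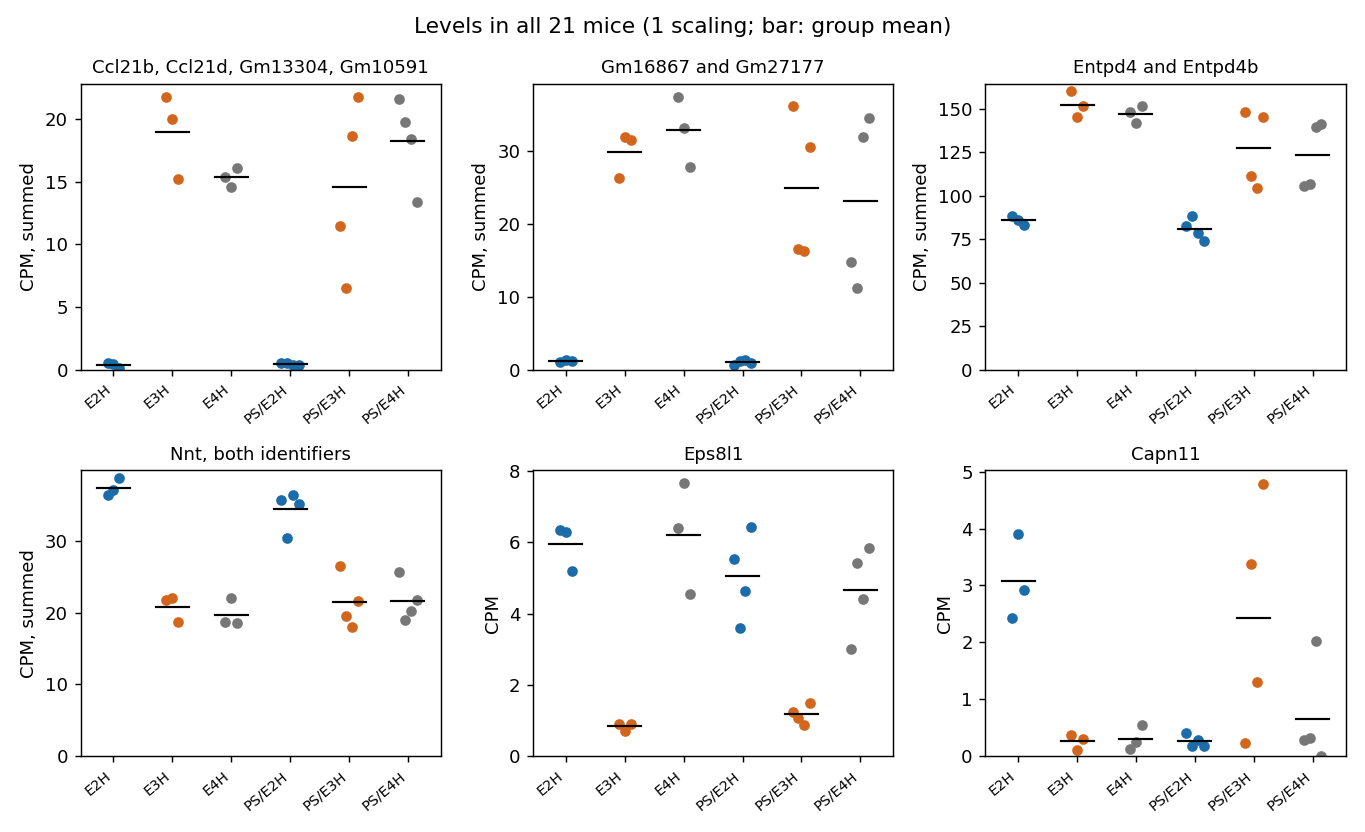
CPM per mouse in the 6 groups for 6 loci, with blue for APOE2, orange for APOE3, gray for APOE4 and bars for group means (linear axes from 0). The APOE2 groups did not overlap the others for the Ccl21 copies, Gm16867 with Gm27177, the Entpd4 pair and Nnt; Eps8l1 was below 2 CPM in both APOE3 groups alone, and Capn11 was high in E2H but low in PS/E2H.

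The PS/E2H and PS/E3H mice give the same contrast of alleles in other animals. There 22 of 20324 genes (0.108%) were called. PS/E2H mouse 2 alone had the pattern of a male, with Xist at 2.84 CPM and the Y-linked genes at 98.6 CPM. All other mice of this contrast had Xist at 203 CPM or more. In the paper, paralysis came later in PS/E3H than in PS/E2H mice. The contrasts with and without tau may thus also differ in sex and age, which cannot be told apart from tau here. Of the 37 genes with an adjusted p under 0.05 without tau, 36 were tested with tau, and 34 differed in the same direction, 31 of them at an unadjusted p under 0.05, against 5.72% higher and 6.01% lower over all genes in those mice. Many of these genes are near-identical copies that can exchange reads, so the counts are not of independent genes. Across the named genes the log2 differences with tau were -5.12 for Ccl21b, -4.62 for Ccl21d, 1.496 for the longer Nnt identifier, 2.11 for Eps8l1, 1.15 for Tnnt1, -0.49 for Rdh13, -3.93 for Zfp264 and -0.88 for Zfp14. For Fam205a3 and Fam205a4 both were -0.73, for Entpd4 -0.80, for Entpd4b -0.51 and for Mid1 1.46. Values near 0 were seen for Rnf8 at 0.09, Mt2 at 0.06, and Gm15920 was at 0.20. The plot of differences without and with tau sets all 36 side by side.

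**Figure D3:**
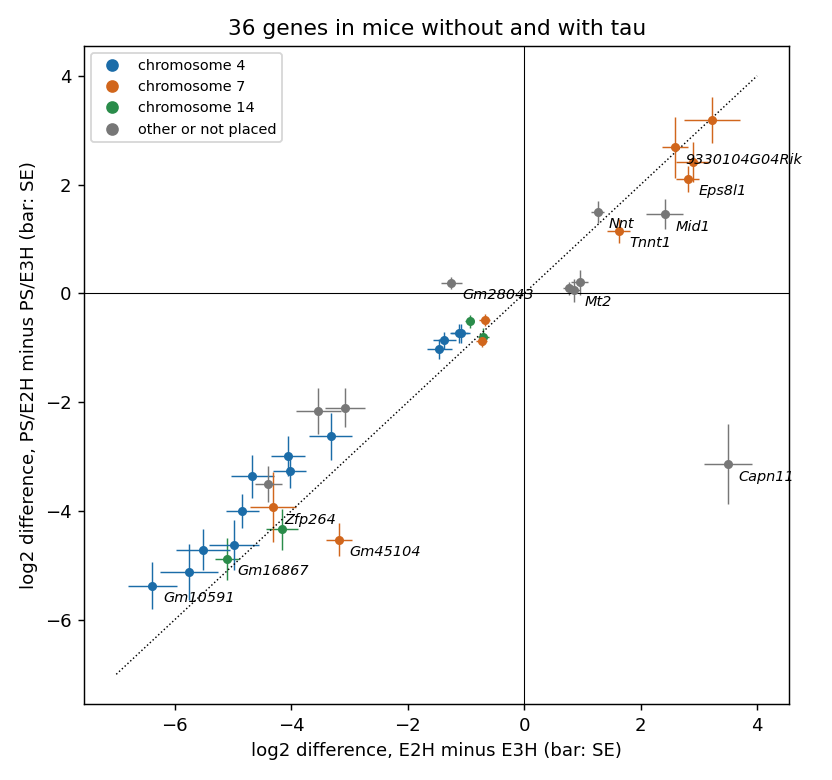
Log2 difference between the APOE2 and APOE3 mice without tau (horizontal) and with tau (vertical) for the 36 genes tested in both, with bars for SE, colors for chromosomes and a dotted line where the values are equal. Most points lie near the line; Capn11, at 3.50 and -3.14, and Gm28043, at -1.25 and 0.19, lie in the quadrants of opposite sign.

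Capn11 and Gm28043 were the 2 of opposite sign. Capn11 was at 0.184 to 0.418 CPM in the 4 PS/E2H mice, below all 3 E2H mice, and at 0.240 to 4.78 CPM (median 2.35) in the 4 PS/E3H mice, of which the lowest was like E3H. Its log2 difference with tau was -3.14 (adjusted p = 0.307 by edgeR), and the difference between the contrasts with and without tau was -6.63 (SE 1.01, adjusted p = 0.0907). In E4H and PS/E4H mice Capn11 was at 0.134 to 0.543 and at 0 to 2.02 CPM, so it varied within groups as well. Gm28043 was at 28.9 to 39.1 CPM in PS/E2H and 24.7 to 31.5 CPM in PS/E3H, and its difference between the contrasts was 1.45 (SE 0.218, adjusted p = 0.0907). Over 22133 genes the edgeR test of that difference gave 0 genes at an adjusted p under 0.05 and 1265 at an unadjusted p under 0.05, while DESeq2 gave 10 at an adjusted p under 0.05, among them both of these, Isg15, Oasl2 and Ifi44.

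Gene lists were then read by their counts at an unadjusted p under 0.05, beside 8.25% higher and 5.86% lower over all genes, and by their median log2 difference, which was -0.00804 over all genes. No member of a list is said to have changed unless its adjusted p passed. With limma on the FPKM table in place of edgeR on the counts, and another filter, the split of all genes, 1715 higher and 1218 lower in edgeR, became 1037 higher and 2184 lower on log2(FPKM + 1) and 737 and 1735 on log2(FPKM + 0.1). With 1 mouse left out, the median changed sign for the lists of cholesterol synthesis, calpains, complement, both microglial states, oligodendrocyte precursors, excitatory and inhibitory neurons, immediate early genes, striatum and hypothalamus with thalamus, so no direction is drawn for these. Values for each list are drawn in the plot of list medians.

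**Figure D4:**
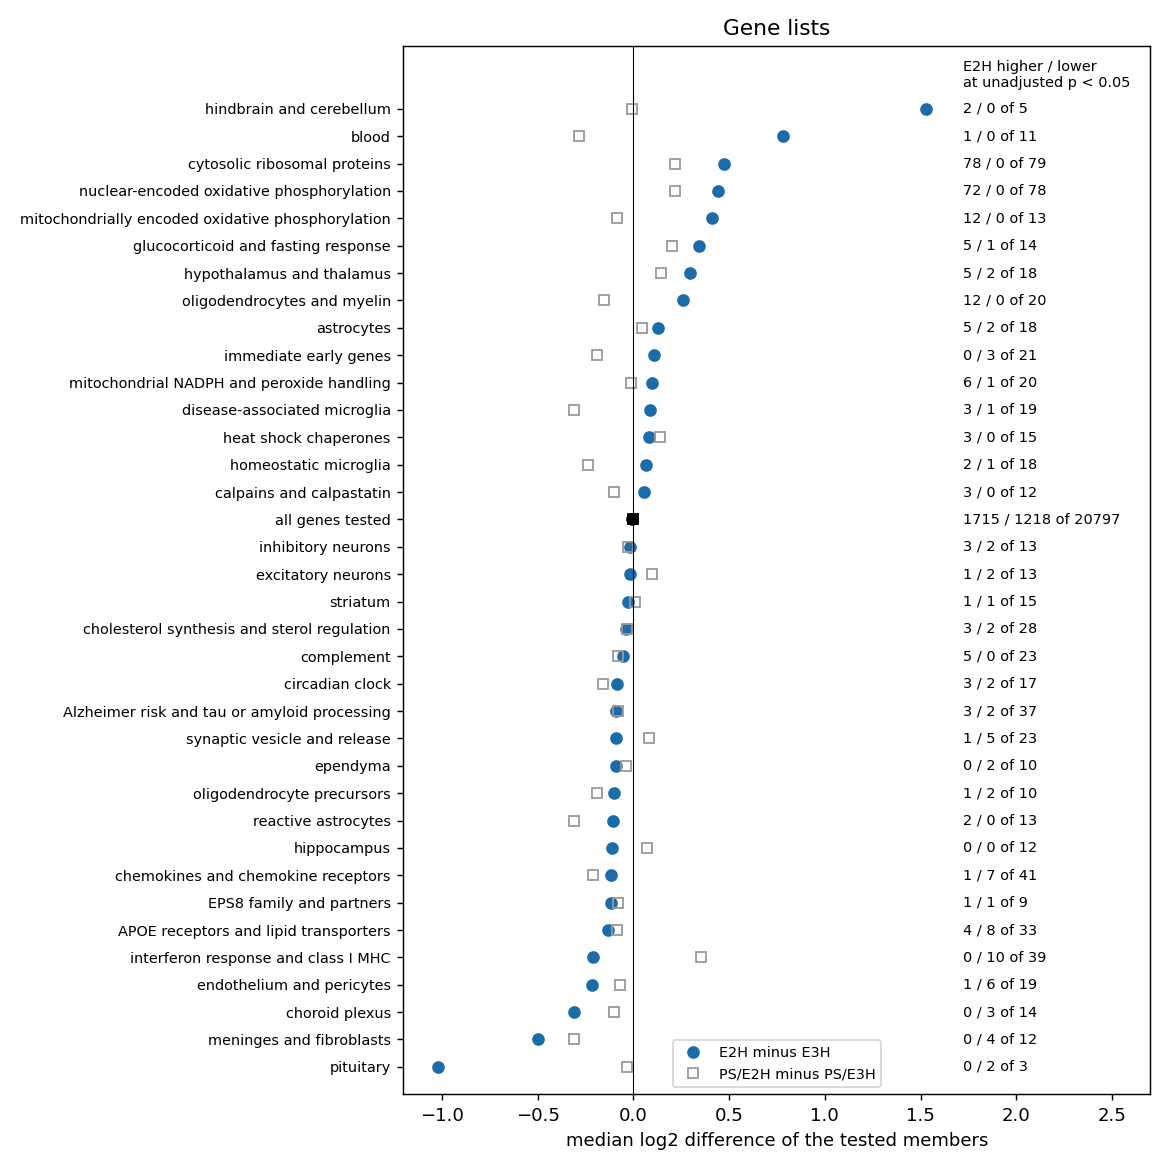
Median log2 difference of the tested members of each list, E2H minus E3H (blue circles) and PS/E2H minus PS/E3H (gray squares), with the counts of members higher and lower in E2H at an unadjusted p under 0.05 at the right. Ribosomal and oxidative phosphorylation genes lie above 0.40 without tau, and interferon genes lie at -0.21 without tau and 0.35 with tau.

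Genes of translation and respiration were higher in E2H almost without exception, by a small amount. Of 79 cytosolic ribosomal protein genes, 78 were higher and 0 lower at an unadjusted p under 0.05, with a median log2 difference of 0.47, and 0 had an adjusted p under 0.05 in edgeR. In DESeq2, which placed 2.51% of all genes higher and 1.37% lower at an adjusted p under 0.05, 52 passed. Their summed level was 12757, 17942 and 12500 CPM in E2H mice 1 to 3 and 10868, 10372 and 10185 CPM in the E3H mice, so E2H mouse 2 was far above the others. Without that mouse 74 were higher and the median was 0.28, beside 6.8% of all genes higher and 6.23% lower, and without E3H mouse 3, 55 were higher, beside 4.48% and 3.91%. Rpl35a, Rpl36, Rps27 and Rpl39, the 4 with the smallest p, had log2 differences of 0.69, 0.74, 0.73 and 0.81 (each adjusted p = 0.211 by edgeR). In the mice with tau 37 of the 79 were higher, with a median of 0.22.

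Nuclear-encoded subunits of oxidative phosphorylation behaved alike, with 72 of 78 higher and 0 lower, a median of 0.44, 47 at an adjusted p under 0.05 in DESeq2 and 0 in edgeR. Without E2H mouse 2, 68 were higher with a median of 0.28. Cox7b, a subunit of cytochrome c oxidase, was at 144, 185 and 136 CPM in E2H and at 115, 106 and 102 CPM in E3H (log2 difference 0.52, adjusted p = 0.211 by edgeR). Uqcrh, Ndufb6 and Atp5l had log2 differences of 0.53, 0.59 and 0.45. Of the 13 subunits encoded in mitochondrial DNA, 12 were higher with a median of 0.41, 7 passing an adjusted p under 0.05 in DESeq2 and 0 in edgeR. Without E2H mouse 2 the median was 0.24, with 12 still higher. The genes mt-Nd3, mt-Co2, mt-Nd6 and mt-Atp6 had log2 differences of 0.66, 0.41, 0.59 and 0.41. In the mice with tau these 13 went the other way in sign, with 0 higher, 2 lower and a median of -0.09.

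Gene length moved with these differences. The median log2 difference was 0.15 for genes with under 1 kb of exon sequence and 0.16 for 1 to 2 kb, and it was 0.05, -0.05 and -0.15 for 2 to 4, 4 to 8 and over 8 kb. Of the genes of 1 to 2 kb, 16.6% were higher and 1.48% lower at an unadjusted p under 0.05, and of those over 8 kb, 1.48% were higher and 17.5% lower. Across the 20767 genes with a known length, Spearman's rho between length and log2 difference was -0.295, as a description, since genes are not independent replicates. The mice with tau showed a like gradient, from 0.08 to -0.12. With a smooth trend on length taken out of each library, 72 of 79 ribosomal genes and 64 of 78 nuclear-encoded respiratory genes were still higher, beside 7.48% of all genes higher and 4.71% lower, with medians of 0.35 and 0.29, and of the 13 mitochondrially encoded genes 7 were, with a median of 0.20. The part of length, of library preparation and of E2H mouse 2 in these lists was otherwise not tested.

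**Figure D5:**
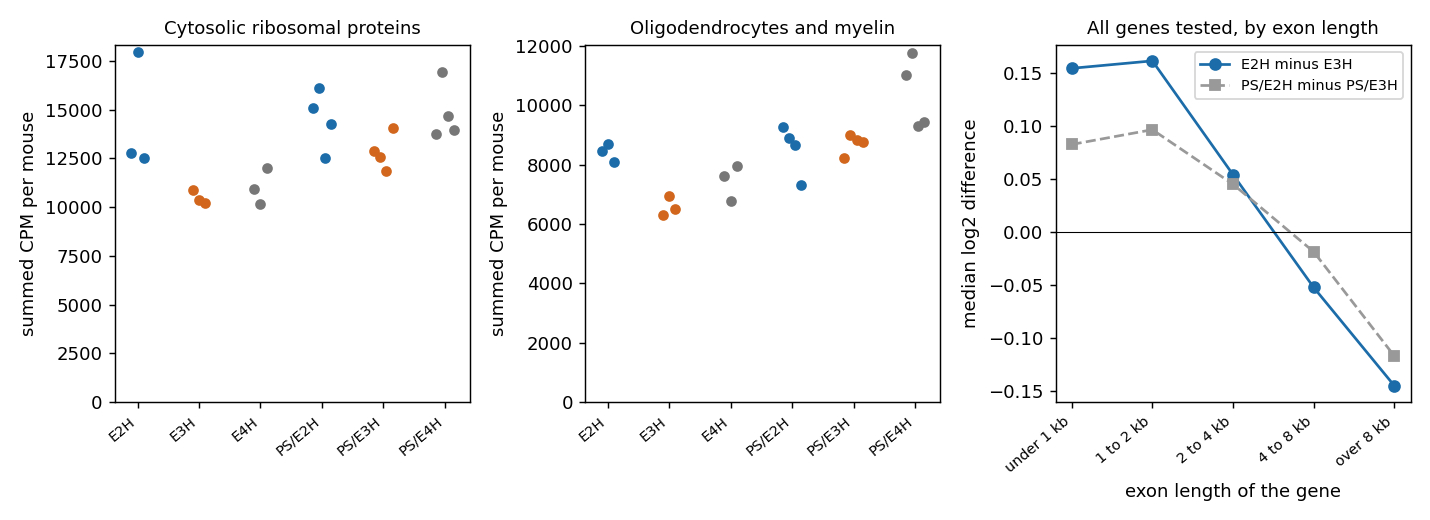
Left and middle, summed CPM per mouse of the cytosolic ribosomal protein genes and of the oligodendrocyte and myelin genes in all 6 groups (axes from 0; blue APOE2, orange APOE3, gray APOE4). Right, median log2 difference of all genes tested by exon length, falling from 0.16 to -0.15 without tau and from 0.10 to -0.12 with tau.

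Myelin genes were mostly higher in E2H. Of 20 oligodendrocyte and myelin genes, 12 were higher and 0 lower, with a median log2 difference of 0.26, 0 at an adjusted p under 0.05 in edgeR and 8 in DESeq2. Their summed level was 8476, 8708 and 8096 CPM in E2H and 6317, 6933 and 6493 CPM in E3H, without overlap. Mbp, myelin basic protein, was at 3040, 3691 and 3075 CPM in E2H and at 2288, 2504 and 2266 CPM in E3H (log2 difference 0.47, SE 0.0964, adjusted p = 0.188 by edgeR). Cnp and Mobp, further myelin proteins, had log2 differences of 0.39 and 0.44. In bulk tissue more oligodendrocytes and more RNA per oligodendrocyte cannot be told apart. Of 10 oligodendrocyte precursor genes 1 was higher and 2 lower, with a median of -0.10, and the proteoglycan gene Cspg4, Tnr, Lhfpl3 and the growth factor receptor gene Pdgfra had log2 differences of -0.50, -0.30, 0.24 and -0.12. With tau, 1 of the 20 myelin genes was higher and 2 lower, and the median was -0.15.

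Astrocyte genes were mixed, with 5 of 18 higher and 2 lower and a median of 0.13. S100b, a calcium-binding protein, was at 152, 176 and 152 CPM in E2H and at 119, 119 and 112 CPM in E3H, with a log2 difference of 0.46 (SE 0.0837, adjusted p = 0.116 by edgeR). Aldoc, Gjb6 and Acsbg1 had values of 0.40, 0.37 and 0.27. Among 13 genes of reactive astrocytes 2 were higher and 0 lower, with a median of -0.11. Of these Lcn2, a siderophore-binding protein, was at 6.60 CPM in E2H mouse 1 and at 0.0801 to 0.326 CPM in the other 5 mice. Serpina3n, a protease inhibitor, had 28.2 to 32.8 CPM in E2H and 24.9 to 28.2 CPM in E3H (log2 difference 0.23, adjusted p = 0.337), and Aspg and S1pr3 were at -0.56 and -0.26.

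In the homeostatic and disease-associated microglial lists, 11.1% and 15.8% of genes were higher and 5.56% and 5.26% lower. In the complement list 21.7% were higher and 0% lower. Over all genes the shares were 8.25% and 5.86%, and no direction is drawn for these lists, as said above. Of 18 homeostatic microglia genes 2 were higher and 1 lower (median 0.07), with Tyrobp, Selplg, Sall1 and Siglech at 0.43, 0.32, -0.23 and -0.20 on the log2 scale. Among 19 genes of disease-associated microglia 3 were higher and 1 lower (median 0.09), with Spp1 at 0.43, Ch25h, which makes an oxysterol, at 1.75, Apoe at 0.30 and the growth factor gene Csf1 at -0.27. Complement had 5 of 23 genes higher and 0 lower with a median of -0.06. Of these the C1q genes C1qb and C1qa had log2 differences of 0.42 and 0.32, Cd59a 0.43 and the receptor gene C5ar1 1.51 (adjusted p = 0.224 to 0.311 by edgeR over the 4).

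Of 39 interferon-response and class I MHC genes, 0 were higher and 10 lower in E2H (25.6%, against 5.86% of all genes), with a median log2 difference of -0.21. Their summed level overlapped, at 416, 516 and 480 CPM in E2H and 511, 496 and 474 CPM in E3H, with E2H mouse 2 the highest. None had an adjusted p under 0.05 in edgeR, and 3 did in DESeq2. Isg15, a ubiquitin-like protein induced by interferon, was at 1.68, 1.75 and 1.5 CPM in E2H and at 3.55, 2.55 and 2.49 CPM in E3H (log2 difference -0.80, SE 0.223, adjusted p = 0.232 by edgeR). H2-Q4 and H2-Q6, class I genes that share sequence with other H2-Q genes, were at -0.86 and -0.95, and the GTPase gene Gbp3 at -0.74. In the mice with tau the list stood the other way, with 14 higher and 0 lower in PS/E2H and a median of 0.35, and Isg15 had a log2 difference of 1.196. That difference between the contrasts was not tested over the list.

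Of 41 tested chemokine and chemokine receptor genes, 1 was higher (2.44%) and 7 lower (17.1%), beside 8.25% and 5.86% over all genes, with a median of -0.12. The 7 include Ccl21 copies, which can exchange reads and so do not count separately. The 2 genes with an adjusted p under 0.05 in edgeR were Ccl21b and Ccl21d, against 3 genes of the list in DESeq2. The next after the Ccl21 copies was Cxcl12, which guides progenitor cells and lymphocytes, at 43.2 to 54.9 CPM in E2H and 60.2 to 65.3 CPM in E3H (log2 difference -0.36, SE 0.0996, adjusted p = 0.232 by edgeR).

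Lipid handling, the setting in which APOE acts, gave no gene at an adjusted p under 0.05 in edgeR, and DESeq2 gave 4, all in the first list. Of 33 APOE receptors and lipid transporters, 4 were higher and 8 lower, with a median of -0.13 that became -0.05 with the length trend taken out, 2 then being higher and 5 lower. Apod, apolipoprotein D, was at 377, 319 and 277 CPM in E2H and at 209, 252 and 206 CPM in E3H (log2 difference 0.54, SE 0.124, adjusted p = 0.211 by edgeR). Lrp1, a large endocytic receptor for APOE, was at 239, 210 and 274 CPM in E2H and at 335, 320 and 317 CPM in E3H (log2 difference -0.43, SE 0.0992, adjusted p = 0.216). Neither Apod nor Lrp1 overlapped between the groups, which 12.6% of all genes also did not on the higher and 10.8% on the lower side. Reln, the ligand of the APOE receptors on neurons, had a log2 difference of -0.39.

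Among 28 genes of cholesterol synthesis and its regulation 3 were higher and 2 lower (median -0.04). Pmvk and Mvk, kinases of the mevalonate pathway, had log2 differences of 0.37 and 0.41, Ebp 0.38 and Hsd17b7 -0.24. Of 37 genes for Alzheimer risk and for tau or amyloid processing, 3 were higher and 2 lower (median -0.09), with the tau kinase genes Gsk3b and Cdk5 at -0.20 and 0.24, the myeloid transcription factor gene Spi1 at 0.49 and Aph1c, a subunit of gamma-secretase, at -0.26. The smallest adjusted p among the 37 was 0.321 in edgeR, that of Gsk3b.

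No gene of the neuronal lists had an adjusted p under 0.05 in edgeR. DESeq2 placed 3 inhibitory neuron, 1 excitatory neuron and 4 synaptic genes there. Of 13 inhibitory neuron genes 3 were higher (23.1%) and 2 lower (15.4%), beside 8.25% and 5.86% over all genes, with a median of -0.02. Pvalb, the calcium buffer of fast-spiking interneurons, was at 80.5, 92.4 and 63.3 CPM in E2H and at 43.0, 47.4 and 44.6 CPM in E3H, a log2 difference of 0.81 (SE 0.130) that came near the threshold (adjusted p = 0.0640 by edgeR). Calb2, calretinin, and Dlx2 were at 0.56 and -0.56. Of 13 excitatory neuron genes 1 was higher and 2 lower (median -0.02), with Tbr1, Slc17a6 and Cck at -0.21, 0.48 and 0.28. Genes for synaptic vesicles and release had 1 of 23 higher and 5 lower (21.7%, against 5.86% over all genes), with a median of -0.09. Without E2H mouse 2, 2 were higher and 9 lower. With the length trend taken out, 1 was higher and 3 lower, and the median was -0.02. The presynaptic scaffold genes Bsn, Rims1, Unc13a and Pclo were at -0.38, -0.29, -0.42 and -0.48.

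Among stress genes the metallothioneins had the smallest p. Of 14 genes of the glucocorticoid and fasting response, 5 were higher and 1 lower with a median log2 difference of 0.35, Mt2 being the 1 at an adjusted p under 0.05 in edgeR, against 4 genes in DESeq2. The median dropped to 0.06 without E2H mouse 1, the mouse with the high Lcn2. Tsc22d3, also known as Gilz and induced by glucocorticoids, was at 81.4, 80.8 and 74.9 CPM in E2H and at 55.8, 61.4 and 58.4 CPM in E3H (log2 difference 0.43, SE 0.0789, adjusted p = 0.116 by edgeR), and the kinase gene Sgk1 was at 0.50. Of 21 immediate early genes 0 were higher and 3 lower, with a median of 0.11 that was -0.09 without E2H mouse 2, 6 then being lower, and 0.27 without E2H mouse 1. In that list Egr3, Fosl2, Nr4a2 and Junb were at -0.36, -0.31, -0.20 and 0.50. Of 17 clock genes 3 were higher and 2 lower (median -0.08), with Npas2, Bhlhe41, Arntl and Ciart at -0.24, 0.24, -0.27 and 0.32. Of 15 heat shock genes 3 were higher and 0 lower (median 0.08), with Hspe1, Dnajb1, Cryab and Dnaja1 at 0.51, 0.22, 0.29 and 0.15.

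Lists for vascular and covering tissue held more members that were lower in E2H than higher. Of 19 genes of endothelium and pericytes 1 was higher and 6 lower (31.6%), with a median of -0.22. Pdgfrb, the receptor that marks pericytes, was at 13.9, 14.7 and 16.6 CPM in E2H and at 26.2, 23.5 and 23.7 CPM in E3H, a log2 difference of -0.70 (SE 0.108) just short of the threshold (adjusted p = 0.0514 by edgeR). Rgs5, another pericyte gene, was at 74.7, 69.7 and 80.1 CPM in E2H and at 110, 105 and 101 CPM in E3H (log2 difference -0.49, SE 0.0819, adjusted p = 0.0768), and the endothelial junction genes Ocln and Cdh5 were at -0.44 and -0.41. With tau the log2 differences of Pdgfrb and Rgs5 were -0.07 and -0.18.

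For tissues that a dissection can include, no gene had an adjusted p under 0.05 in edgeR. Meninges and fibroblasts had 0 of 12 genes higher and 4 lower (median -0.50), with summed levels of 530, 929 and 885 CPM in E2H and 758 to 933 CPM in E3H, a median of -0.22 without E2H mouse 1, and Slc6a13, Ogn, Col1a1 and Igf2 at -0.60, -0.76, -0.55 and -0.53. Choroid plexus had 0 of 14 higher and 3 lower (median -0.31), with overlapping sums of 478 to 733 and 534 to 802 CPM and Tmem72, Kl, Aqp1 and Kcnj13 at -0.74, -0.60, -0.58 and -0.34. For ependyma, 0 of 10 were higher and 2 lower (median -0.09), with Ccdc153, Hydin, Rsph1 and Sntn at -0.53, -0.65, -0.34 and -0.73. Of 3 tested pituitary genes 2 were lower, with summed levels of 2.0 to 3.9 CPM in E2H and 7.2 to 7.6 CPM in E3H, and Prl, prolactin, at 0 to 1.49 CPM in E2H and 1.98 to 4.54 CPM in E3H, Pomc at a log2 difference of -1.02 and Tshb at -0.27. Their part in the results above was not tested.

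Single E2H mice stood out in some lists. Blood genes summed to 790 CPM in E2H mouse 1 and to 199 to 337 CPM in the other 5. Of 11 blood genes 1 was higher and 0 lower, with a median of 0.78 that was 0.0957 without E2H mouse 1 and 1.13 without E2H mouse 3, and Ppbp, Slc4a1, S100a8 and S100a9 had log2 differences of 2.38, 2.14, 2.75 and 1.91. Hindbrain genes had 2 of 5 higher and 0 lower, with a median of 1.53 that was 0.71 without E2H mouse 3. Tph2, the serotonin-synthesis enzyme of the raphe, was at 21.9 CPM in E2H mouse 3 and 0.571 to 2.61 CPM in the other 5, and Slc6a5, the glycine transporter of brainstem and spinal cord, at 7.39 CPM against 0.258 to 1.31 CPM, with log2 differences of 3.22 and 2.34, and with Barhl1 and Zic1 at 1.53 and 0.12. Hypothalamus and thalamus genes summed to 597 CPM in E2H mouse 1 and 319 to 444 CPM in the other 5, and 5 of 18 were higher and 2 lower, with a median of 0.30 that was -0.02 without that mouse and Calb2, Pmch, Hdc and Hcrt at 0.56, -0.55, 0.51 and -0.64. Striatum, with 1 of 15 higher and 1 lower (median -0.03) and Tac1, Foxp1, Rasd2 and Pde10a at 0.33, -0.29, -0.13 and -0.36, and hippocampus, with 0 of 12 higher or lower (median -0.11) and Spink8, Zbtb20, Neurod1 and Trpc6 at 0.39, -0.42, -0.21 and -0.21, stayed at or below the background.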

How the data were processed

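RNA was extracted from frozen, pulverized forebrains, and the authors made stranded mRNA libraries read in pairs on a NovaSeq instrument. They trimmed reads with cutadapt, aligned them with HISAT2 (GRCm38.p5 in the submitters' notes) and assembled and quantified transcripts with StringTie, with versions not stated. The deposited count table, whole-number counts per gene without normalization, was the base of all results, and the FPKM table deposited by the authors (fragments scaled to transcript length and library size) served for an alternative. GENCODE M21 names 55141 of its 55401 identifiers, and 0 columns were unmapped.

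Groups and replicate numbers come from the labels. Counts were fitted with edgeR 4.0.16 in R 4.3.3: TMM scaling, filterByExpr (minimum count 10, minimum total 15), the quasi-likelihood test and Benjamini-Hochberg adjustment over all genes tested. SE is the log2 difference divided by the square root of F. A gene was called at an adjusted p under 0.05 and a log2 difference of at least 1 in size. Alternatives were DESeq2 1.42.0, other scalings and filters, limma 3.58.1 on log2(FPKM + 1) and log2(FPKM + 0.1) for genes with a mean of at least 0.1 FPKM, all 21 mice in one fit, a replicate block and each mouse left out. Figures used Python 3.11.15 and matplotlib 3.10.9. The fits were tested on simulated data. The total count per mouse, at least 60394625, limits counting error, and with 3 mice a group an exact permutation test could not go below 0.1.

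The genes named are all those with an adjusted p under 0.05, those called with predicted-gene names by range, the genes the study names for this comparison, and from each list the 4 tested members with the smallest p, with a gene of 2 lists described once. Some list members that this rule names are not reported here. Genes given beyond these were chosen after their values were seen. The gene lists were written from general knowledge, and the members and lists were chosen with earlier results of these data known. Coding sequences are those of the GENCODE M21 transcripts. Shared windows were exact matches of 50 bases between the sense strands of those transcripts, and antisense matches were not searched.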

Additional observations from a re-analysis of the deposited data

Results flagged for a closer look

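In PS/E4H mouse 3 Capn11 was at 2.02 CPM, far from the nearest of the other 3 mice of that group at 0.327 CPM. In PS/E3H mouse 4 9330104G04Rik was at 0.0574 CPM, against 1.13 CPM or more in the other 3. These 2 came from 111 pairs of gene and group examined with Dixon's criterion, under which chance alone marks about 1 in 20 (5%) of groups.

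The difference between APOE2 and APOE3 mice itself differed between mice with and without tau for 3 described genes in DESeq2. The log2 interaction was -6.67 for Capn11 (adjusted p = 1.11e-08), 1.44 for Gm28043 (adjusted p = 3.83e-06) and 1.99 for Isg15 (adjusted p = 0.000568). In edgeR the same interactions were -6.63, 1.45 and 2.003, with adjusted p = 0.0907, 0.0907 and 0.308, so that they did not pass there.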

How the results depend on the processing

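For single genes no direction reversed in the alternatives that kept them apart, of which the length trend could be fitted for 34 of the 37; summed with Gm28043, Rnf8 went from 0.78 to -0.20, and the 2 Nnt identifiers, of opposite sign alone, summed to 0.85. DESeq2 called 68 genes, 28 of them shared with edgeR's 30, with 609 at an adjusted p under 0.05; it called 64 genes between PS/E2H and PS/E3H and found 10 interactions. On log2(FPKM + 1) limma called 16 genes, with 1037 higher and 2184 lower at an unadjusted p under 0.05, and on log2(FPKM + 0.1) 737 higher. The oligodendrocyte median was 0.156 and 0.166 on these scales. All 21 mice in one fit gave 83 genes at an adjusted p under 0.05 but lost 8 of the 37, Capn11 (adjusted p = 0.109), both Nnt identifiers (0.144 and 0.104), Mt2, Rnf8, Gm28043, Gm15920 and Entpd4. Near-identical copies summed per locus, an alternative chosen after seeing the data like the length trend, left 15 calls. The cause of these changes was not tested, except that summing leaves fewer genes.

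Leaving out each mouse gave 21 to 36 calls and 22 to 55 genes at an adjusted p under 0.05 (22 without E3H mouse 1 or mouse 3), 962 (without E3H mouse 3) to 1959 higher and 686 (without E3H mouse 1) to 1504 lower at an unadjusted p under 0.05. List medians ran from 0.241 to 0.341 for oligodendrocytes, from 0.0569 (without E2H mouse 1) to 0.448 for the glucocorticoid list, from 0.277 to 0.583 for ribosomal proteins and from 0.278 to 0.538 for nuclear-encoded respiration. Between PS/E2H and PS/E3H it gave 14 (without PS/E2H mouse 1) to 20 calls. Eps8l1, Ccl21b, Ccl21d, Entpd4b and both Nnt identifiers kept their place below the threshold in all 6 such fits, Capn11 in 5, Tnnt1 in 3, Mt2 in 2, and Rdh13, Rnf8, Zfp14, Entpd4 and Mid1 in 1. With a replicate block 22 genes were called and 25 had an adjusted p under 0.05; same-numbered mice did not deviate together (r = -0.026 to -0.008), so the numbers do not pair mice.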
